A study of Mus musculus with 6 samples.

Results

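Alpha- and beta-tubulin are the subunits of the microtubule, the hollow polymer that builds the mitotic spindle, carries transport inside the cell and forms the core of cilia. The 10 genes described here, Tuba1a, Tuba1b, Tuba1c, Tuba4a, Tubb2a, Tubb2b, Tubb3, Tubb4b, Tubb5 and Tubb6, were picked by symbol from the genes of the deposited tables. All 10 members had a row in both tables, out of 10932 genes that both tables list. The 4 alpha genes and 6 beta genes were picked with their changes in both comparisons already known, so those changes are given as a description, with no test of them. Gamma-tubulin gene Tubg1, whose product nucleates microtubules and is not part of the polymer wall, was set beside them as a contrast.

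RNA sequencing was carried out on E0771, a mouse breast cancer cell line of C57BL/6 background, with 2 libraries in each of 3 groups. After 48 h of growth, cells received Enniatin A (EnnA, a cyclic depsipeptide fungal toxin that carries cations across membranes) at 7.4 µM or 17-AAG (a geldanamycin derivative that binds the chaperone HSP90) at 0.5 µM, each for 24 h. The third group received the solvent DMSO, for which no exposure time is stated. Each compound was set against DMSO in a deposited table of its own, with 1 FPKM per gene and group that the authors pooled over both libraries. FPKM is a read count scaled by transcript length and library depth, so levels of different genes can be compared within a group.

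A pooled FPKM carries no standard deviation or n, and whether the libraries of different groups overlap cannot be said from it. Depth per library is unknown. Separate cultures are not mentioned in the labels, so the authors' p-values may measure technical spread alone. The log2 change is log2 of compound + 1 over DMSO + 1, in FPKM. Its implied SE was worked out from the deposited log2 change and p under a normal distribution, and is only an upper bound ("at most") for genes at the lowest p the authors list, 5e-05. A gene counts as called, higher or lower, where the q in the authors' deposited table was under 0.05. Of 13 mammary epithelial markers, 4 had a row in the EnnA table, led by the keratin gene Krt8 at 17.7 FPKM with DMSO and the adhesion gene Epcam at 1.61 FPKM, and the defining markers Krt18, Krt5 and Krt14 had none. Krt8 fell with EnnA (log2 change -0.62) and rose with 17-AAG (0.57), while Epcam was called with neither (0.13 and 0.03). The other listed markers, Esr1 and Gata3, were low and were called higher with EnnA (0.559 to 1.57 FPKM and 0.156 to 0.591 FPKM). Esr1 was also called higher with 17-AAG (0.613 to 1.09 FPKM). The epithelial markers thus did not move one way with EnnA. Of 11 neuronal markers only Gap43 had a row, at 4.38 FPKM with DMSO, and it fell with both compounds (-0.62 and -0.68). Of 9 leukocyte markers 2 had a row, which summed to 50.1 FPKM with DMSO and 97.9 FPKM with EnnA, and to 54.9 and 32.9 FPKM in the 17-AAG table. These 2 went opposite ways: Cd68 rose with EnnA (38.0 to 89.1 FPKM) and fell with 17-AAG (41.6 to 17.1 FPKM), whereas Lyz2 fell with EnnA (12.2 to 8.73 FPKM) and was not called with 17-AAG (13.3 to 15.8 FPKM). Of 8 fibroblast and endothelial markers 3 had a row, with sums of 15.4 and 34.1 FPKM in the EnnA table and 16.9 and 24.3 FPKM in the 17-AAG table. The EnnA sum rests mostly on Pdgfra (10.1 to 26.5 FPKM), which was not called with 17-AAG. Pdgfrb rose with both compounds. Col1a1 was not called with EnnA (0.566 to 0.364 FPKM) and rose with 17-AAG (0.620 to 3.95 FPKM). The part of such cells in the results was not tested. In bulk RNA, fewer cells with a transcript and less transcript per cell cannot be told apart.

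Cells hold many tubulin genes, called isotypes, whose proteins are alike over most of their length. As background, alpha- and beta-tubulin mRNAs are known for autoregulation. When unpolymerised tubulin is in excess, the factor TTC5 recognises the first residues of a tubulin chain leaving the ribosome, and with SCAPER and the CCR4-NOT deadenylase it brings about decay of the mRNA being translated. The bases that encode that start are shown because TTC5 reads the residues they encode, and Tubg1 is shown for contrast. The first 30 coding bases are given 5′ to 3′ from GENCODE M21 transcripts (mouse build GRCm38), with the first 12, the first codons of the chain, in capitals.
Tuba1a: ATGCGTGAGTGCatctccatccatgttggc
Tuba1b: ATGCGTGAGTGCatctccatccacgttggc
Tuba1c: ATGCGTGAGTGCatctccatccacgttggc
Tuba4a: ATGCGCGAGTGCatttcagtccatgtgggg
Tubb2a: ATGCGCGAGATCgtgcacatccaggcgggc
Tubb2b: ATGCGAGAGATCgtgcacattcaggcgggc
Tubb3: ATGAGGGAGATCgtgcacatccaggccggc
Tubb4b: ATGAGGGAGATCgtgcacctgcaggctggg
Tubb5: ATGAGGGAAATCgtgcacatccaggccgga
Tubg1: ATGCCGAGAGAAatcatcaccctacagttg

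Over the 12 capital bases, Tuba1a, Tuba1b and Tuba1c were identical and Tuba4a differed from Tuba1b at 1 position. Among the beta genes, Tubb3 and Tubb4b each differed from Tubb5 at 1 position, Tubb2a and Tubb2b at 3, and Tubb6, whose sequence is not printed, at 2. Tubg1 differed from Tuba1b at 8 of the 12 positions and from Tubb5 at 7. Within a class, the differences printed in the 12 capital bases leave the encoded residues the same. These are Met-Arg-Glu-Cys in the alpha genes and Met-Arg-Glu-Ile in the printed beta genes, against Met-Pro-Arg-Glu in Tubg1. In the 4 alpha genes an intron follows the first 3 coding bases, whereas in the beta genes the 30 bases lie in 1 exon. In GRCm38 the printed starts of Tuba1a (chr15:98951665-98953453), Tuba1b (chr15:98933169-98934335) and Tuba4a (chr1:75217408-75219195) are on the minus strand and that of Tuba1c (chr15:99030422-99034120) is on the plus strand, introns included. Those of Tubb2a (chr13:34077900-34077929), Tubb2b (chr13:34130204-34130233), Tubb4b (chr2:25224561-25224590) and Tubb5 (chr17:35838024-35838053) are on the minus strand. Those of Tubb3 (chr8:123411606-123411635) and Tubg1 (chr11:101120194-101120223) are on the plus strand.

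The likeness goes on through the coding sequence and bears on how reads were assigned to genes. Over whole coding sequences, Tuba1a and Tuba1b were 98.3% identical, Tuba1b and Tuba1c 97.9%, and Tubb2a and Tubb2b 96.5%. Alpha and beta coding sequences were 54.3% to 57.1% identical, and the members were 51.6% to 53.6% identical to Tubg1. The share of 50-base windows of a GENCODE transcript that also occur in a transcript of another gene was 72.9% for Tuba1a, 73.8% for Tuba1b and 61.0% for Tuba1c. It was 49.6% for Tubb2a and 39.3% for Tubb2b, which share windows with each other and with the pseudogene Tubb2a-ps2. For Tubb4b it was 50.9%, with the pseudogenes Tubb4b-ps1 and Tubb4b-ps2 in the lead and no other member. For Tuba4a it was 1.11%, for Tubb5 0.115%, and for Tubb3 and Tubb6 no window of 1819 and 1709 was shared. The windows shared with another member were 52.0% for Tuba1a, 64.6% for Tuba1b and 59.8% for Tuba1c. The rest of their sharing was with other genes, so the alpha sum is uncertain too. The split of reads within the Tuba1 trio, within the Tubb2 pair and between Tubb4b and its pseudogenes is therefore uncertain. By contrast, the levels of Tubb3, Tubb5 and Tubb6 rest on windows found in almost no other gene.

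With DMSO the members spanned a wide range of levels. Tubb5, the main beta isotype of dividing cells, stood at 654.8 FPKM in the EnnA table and was the 78th most abundant of all genes listed there. Tubb4b followed at 231 FPKM, the broadly expressed Tuba1b at 173 FPKM and Tubb6 at 171 FPKM. Pooled levels carry no error, so the order of near neighbours such as Tuba1b and Tubb6 is not settled. Tuba1c stood at 107 FPKM, Tuba1a, the alpha isotype of developing neurons, at 68.2 FPKM, and Tuba4a, whose mRNA encodes an alpha chain without the usual final tyrosine, at 65.5 FPKM. The neuron-rich beta isotypes were the lowest, with Tubb2a at 33.9 FPKM, Tubb2b at 11.2 FPKM and the neuronal marker Tubb3 at 7.63 FPKM. DMSO values of the 17-AAG table were 1.10 times as high for each of the 10 members, for Tubg1 and at the median gene, since the tables were scaled separately.

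**Figure D1:**
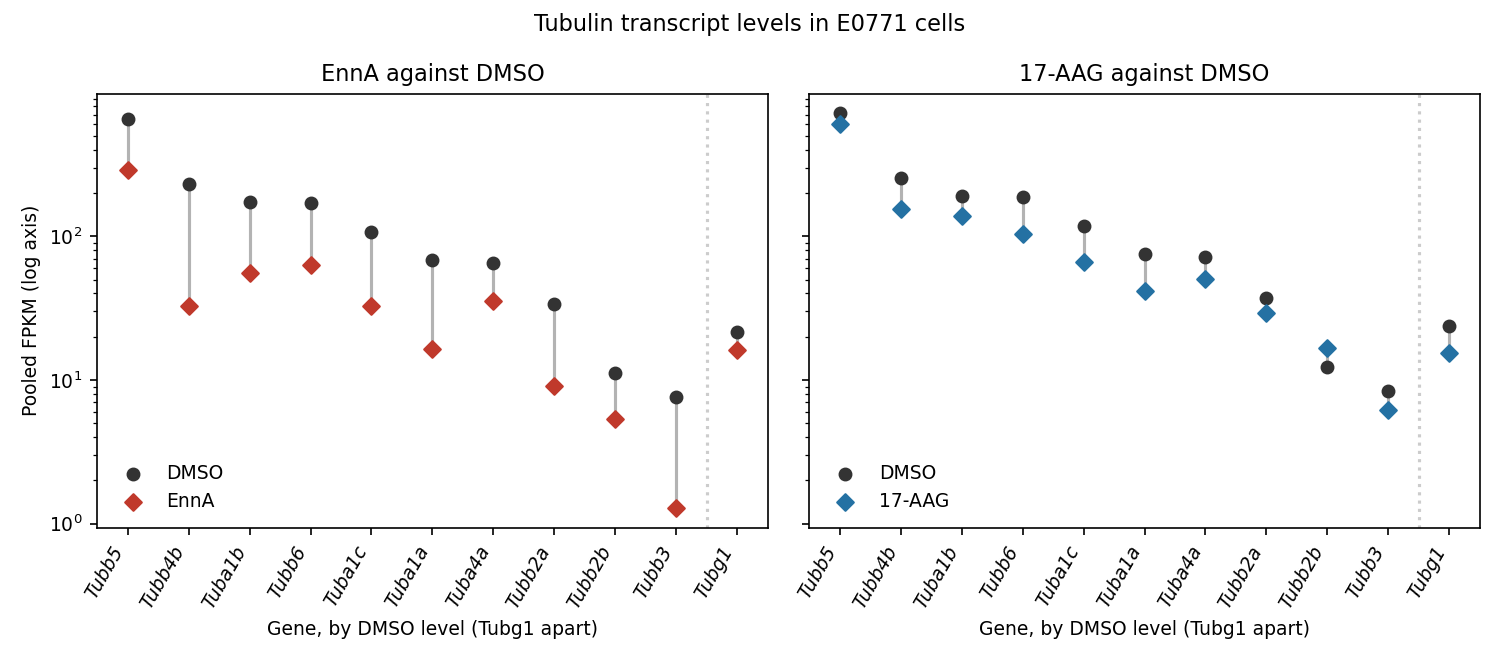
Pooled FPKM of each tubulin gene on a log axis, in the EnnA table (left) and the 17-AAG table (right); black circles are DMSO, coloured diamonds the compound, and grey lines join the values of a gene. With EnnA every diamond lies below its circle, from Tubb5 (654.8 to 287 FPKM) to Tubb3 (7.63 to 1.28 FPKM), and with 17-AAG Tubb2b alone lies above it (12.3 to 16.8 FPKM).

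All 10 members were called lower with EnnA in the authors' deposited table and 0 higher. Of all 11024 listed genes, 24.9% were called lower there and 24.3% higher, and since the members were picked with this comparison known, nothing is read from their count. Their median log2 change was -1.66, against -0.01 over all listed genes, and 9 of the 10 were at least 2-fold lower by their FPKM. Among all listed genes, 8.67% were called lower with a change of at least 2-fold. Each member was at the lowest p of the table, 5e-05, with q = 0.000207 in the authors' deposited table. At q under 0.01, 19.9% of all listed genes were called lower and 18.5% higher.

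Among the alpha genes, Tuba1a went from 68.2 to 16.4 FPKM, 4.16-fold lower (log2 change -1.99, implied SE at most 0.51). Tuba1c went from 107 to 32.8 FPKM, 3.26-fold lower (log2 change -1.67, implied SE at most 0.42). Tuba1b, the most abundant alpha gene, went from 173 to 55.1 FPKM, 3.15-fold lower (log2 change -1.64, implied SE at most 0.41). These 3 neighbours on chromosome 15 (mm9, 98761861 to 98764821 for Tuba1b, 98780277 to 98783932 for Tuba1a and 98860321 to 98868536 for Tuba1c) thus had close values, and whether they differ from each other was not tested. Tuba4a, on chromosome 1 (mm9, 75207403 to 75215828), went from 65.5 to 35.7 FPKM, 1.83-fold lower, the smallest change of the 10 (log2 change -0.86, implied SE at most 0.22). Its locus overlaps that of the kinase gene Stk16, so its value is uncertain.

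Tubb4b had the largest change of the members. This beta isotype, found in most tissues and a building block of ciliary axonemes, lies on chromosome 2 (mm9, 25074264 to 25080222) and went from 231 to 32.5 FPKM with EnnA. It was 7.11-fold lower (log2 change -2.79, implied SE at most 0.70), and 12 of the 11024 listed genes had a lower log2 change. Second of the members by DMSO level, it was the 6th with EnnA. Tubb3, on chromosome 8 (mm9, 125935463 to 125945910), went from 7.63 to 1.28 FPKM, 5.96-fold lower. Its log2 change of -1.92 is held back by the pseudocount at this low level, and without a pseudocount it was -2.57 (implied SE at most 0.63).

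The other beta genes were lower by smaller factors. Tubb2a, on chromosome 13 (mm9, 34166146 to 34169877), went from 33.9 to 9.01 FPKM, 3.76-fold lower (log2 change -1.80, implied SE at most 0.47). Its neighbour Tubb2b (34218876 to 34222223) went from 11.2 to 5.39 FPKM, 2.09-fold lower (log2 change -0.94, implied SE at most 0.26). Tubb6, on chromosome 18, went from 171 to 63.1 FPKM, 2.71-fold lower (log2 change -1.42, implied SE at most 0.35). Tubb5, on chromosome 17 (mm9, 35970864 to 35975246), went from 654.8 to 287 FPKM, 2.28-fold lower (log2 change -1.18, implied SE at most 0.29), and stayed the most abundant member by far.

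With 17-AAG the members moved less and not all one way. By the q of the authors' deposited table, 7 were called lower and 1 higher, where 16.1% of the 11305 listed genes were called lower and 15.6% higher. As with EnnA, nothing is read from these counts. Their median log2 change was -0.47, against -0.01 over all listed genes, and 0 were 2-fold lower by their FPKM, where 1.6% of all listed genes were called lower by at least 2-fold. At a stricter q under 0.01 the authors' deposited table called 4 lower (Tuba1a, Tuba1c, Tubb4b and Tubb6) and 0 higher, where 10.4% of all listed genes were called lower and 9.77% higher.

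Tubb6 had the largest fall with 17-AAG, from 187 to 103 FPKM, 1.82-fold lower (log2 change -0.86, implied SE at most 0.21). Tuba1a went from 74.7 to 41.8 FPKM and Tuba1c from 117 to 66.3 FPKM, with log2 changes of -0.82 and -0.81 (implied SE at most 0.21 and 0.20). Tubb4b went from 253 to 154 FPKM, 1.64-fold lower (log2 change -0.71, implied SE at most 0.18). Whether these 4 differ from each other was not tested.

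Tuba4a (71.7 to 50.4 FPKM), Tuba1b (189.97 to 139 FPKM) and Tubb3 (8.36 to 6.19 FPKM) fell less with 17-AAG, with log2 changes of -0.50, -0.45 and -0.38. Their q in the authors' deposited table was 0.0203, 0.0115 and 0.0460. Tubb2a (37.2 to 29.3 FPKM, log2 change -0.33, implied SE 0.15) and Tubb5 (717 to 609 FPKM, log2 change -0.24, implied SE 0.15) were not called, with q = 0.0758 and 0.208 in the authors' deposited table. Tubb2b was higher, from 12.3 to 16.8 FPKM (log2 change 0.42, implied SE 0.16, q = 0.0210 in the authors' deposited table). The pseudogene Tubb2a-ps2, which shares sequence with it, was listed at 5.33 FPKM with DMSO and 7.10 FPKM with 17-AAG and was not called. With EnnA the pseudogene was called lower, from 4.86 to 2.46 FPKM (log2 change -0.76, q = 0.00908 in the authors' deposited table). The part of shared reads in the Tubb2a and Tubb2b values of either comparison was not tested.

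**Figure D2:**
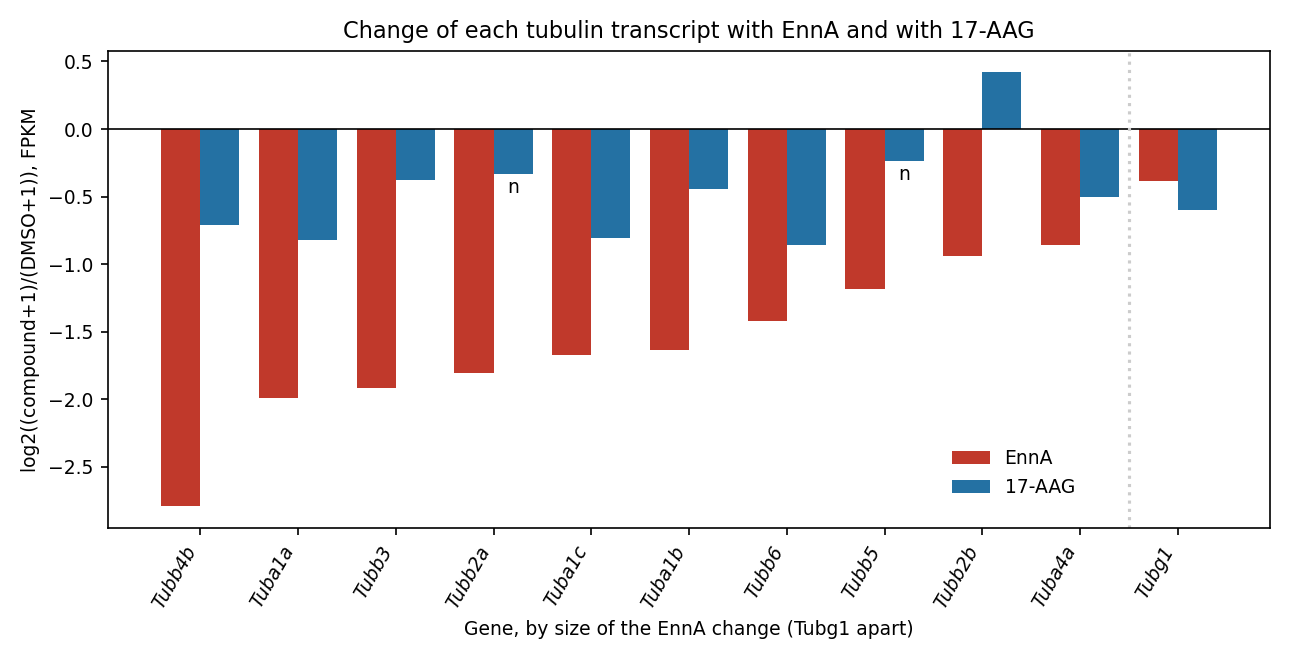
Log2 change in FPKM (compound + 1 over DMSO + 1) of each tubulin gene with EnnA (red) and 17-AAG (blue), ordered by the EnnA change with Tubg1 apart; n marks a value not called at q under 0.05. The EnnA bars run from -2.79 for Tubb4b to -0.86 for Tuba4a, and the 17-AAG bars from -0.86 for Tubb6 to 0.42 for Tubb2b.

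Set side by side, the EnnA log2 change was below the 17-AAG one in all 10 members, and the order of the members was not shared. Both comparisons use the same DMSO libraries, and the difference between the compounds was not tested. Tubb3 was the third most lowered member with EnnA and the 7th with 17-AAG, and Tubb6 was the 7th with EnnA and the first with 17-AAG. The place of Tubb3 with EnnA rests on the pseudocount. By FPKM it was 5.96-fold lower, more than Tuba1a (4.16-fold), which is ahead of it by log2 change. Tuba4a, last with EnnA (log2 change -0.86), was the 5th with 17-AAG (log2 change -0.50).

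Sums over each class give the total level of tubulin transcripts. The 4 alpha genes summed to 414 FPKM with DMSO and 139.97 FPKM with EnnA, 2.96-fold lower, and the 6 beta genes to 1109 and 399 FPKM, 2.78-fold lower. Beta transcripts stood at 2.68 times the alpha sum with DMSO and 2.85 times with EnnA, with both classes lower by nearly the same factor. Together the members made up 0.291% of all listed FPKM with DMSO and 0.0912% with EnnA, and 0.291% and 0.254% in the 17-AAG table. The sum over all listed genes itself rose with EnnA, from 523832 to 590309 FPKM, and fell with 17-AAG, from 574214 to 478899 FPKM. In the 17-AAG table the alpha sum went from 453 to 298 FPKM, 1.52-fold lower, and the beta sum from 1215 to 918 FPKM, 1.32-fold lower. The beta to alpha ratio there was 2.68 with DMSO and 3.08 with 17-AAG. The beta sum rests on Tubb5, and without it the beta genes were 4.09-fold lower with EnnA and 1.61-fold lower with 17-AAG.

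The make-up of each class shifted with EnnA. Tubb5 made up 59.0% of beta transcripts with DMSO, 72.1% with EnnA and 66.3% with 17-AAG. Tubb4b went from 20.8% of beta transcripts with DMSO to 8.14% with EnnA and 16.8% with 17-AAG. Tubb6 held 15.4% with DMSO and 15.8% with EnnA, and 11.2% with 17-AAG. Among alpha transcripts Tuba4a went from 15.8% with DMSO to 25.5% with EnnA and 16.9% with 17-AAG. Tuba1a went from 16.5% to 11.7% with EnnA, and Tuba1b held 41.9% with DMSO, 39.4% with EnnA and 46.8% with 17-AAG. These shares carry no error, since each rests on pooled values.

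**Figure D3:**
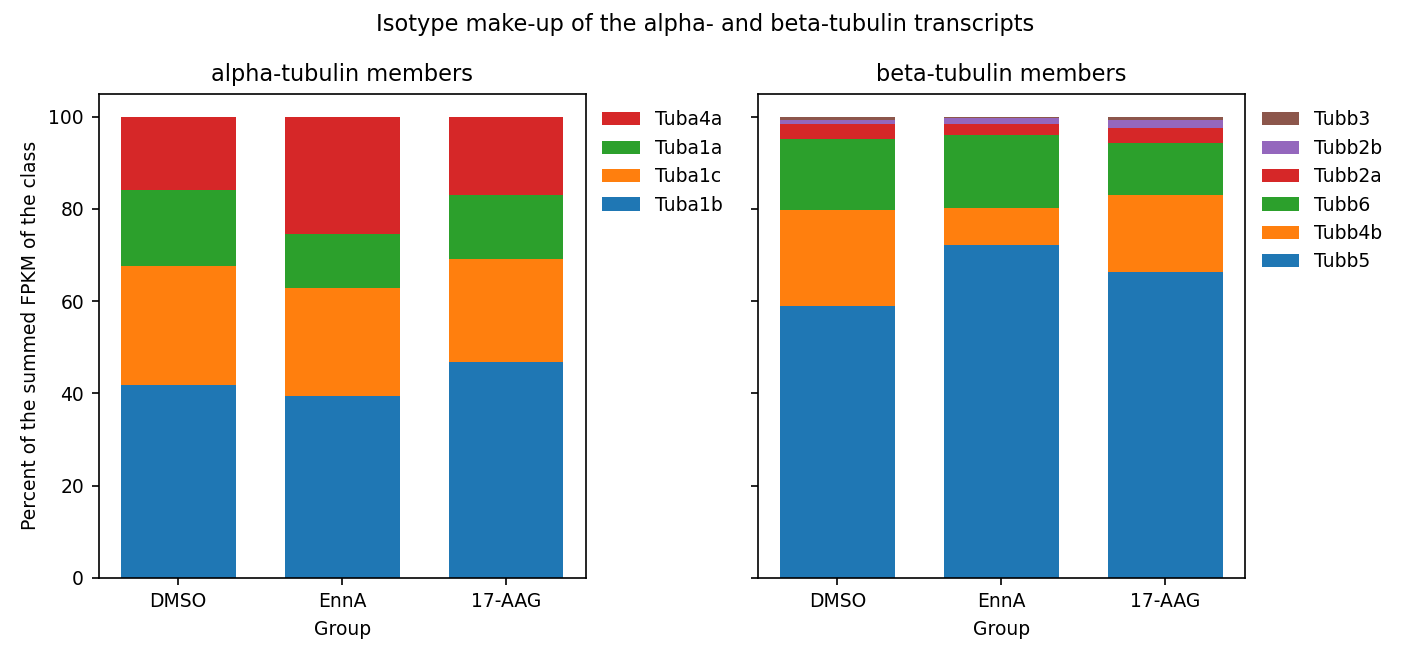
Percent of the summed FPKM of the 4 alpha genes (left) and 6 beta genes (right) held by each gene with DMSO, EnnA and 17-AAG; DMSO shares are those of the EnnA table. Tubb5 takes a larger part of the beta bar with EnnA (59.0% to 72.1%) and Tubb4b a smaller one (20.8% to 8.14%), and Tuba4a a larger part of the alpha bar (15.8% to 25.5%).

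Tubg1 (mm9 chromosome 11, 100981444 to 100987733) went from 21.6 to 16.3 FPKM with EnnA, 1.32-fold lower (log2 change -0.38, implied SE 0.16). Its q in the authors' deposited table was 0.0273. All 10 alpha and beta genes had a lower log2 change with EnnA than Tubg1. With 17-AAG Tubg1 went from 23.6 to 15.3 FPKM, 1.55-fold lower (log2 change -0.60, implied SE 0.17, q = 0.00117 in the authors' deposited table), and 4 of the 10 members had a lower log2 change. Tubg1 thus lay outside the range of the members with EnnA and inside it with 17-AAG.

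Other members of the tubulin superfamily were low. Tubd1 and Tube1, which encode delta- and epsilon-tubulin of the centriole, fell with both compounds. Tubd1 went from 10.8 to 3.61 FPKM with EnnA (log2 change -1.35) and from 11.8 to 6.29 FPKM with 17-AAG (log2 change -0.81). Tube1 went from 9.12 to 4.99 FPKM with EnnA (log2 change -0.76) and from 9.998 to 7.42 FPKM with 17-AAG (log2 change -0.39). Tubg2, the second gamma gene, was at 2.12 FPKM with DMSO and 2.86 FPKM with EnnA, not called, and rose from 2.32 to 4.60 FPKM with 17-AAG. Tuba8 had a row in the 17-AAG table alone, where it rose from 0.362 to 1.72 FPKM. Tuba3a, Tuba3b, Tubal3, Tubb1 and Tubb4a had no row in either table.

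Genes that act on tubulin were described by lists, written with earlier results of these data known. Their counts are to be read against all listed genes, of which 24.9% were called lower and 24.3% higher with EnnA, and 16.1% and 15.6% with 17-AAG. At an unadjusted p under 0.05 these shares were 27.7% and 26.7% with EnnA and 21.4% and 20.1% with 17-AAG. Genes with at least 5 FPKM with DMSO were tilted down with 17-AAG. By q, 19.6% of them were lower and 10.1% higher there, and 23.4% and 25.9% with EnnA. Against these shares, falls with 17-AAG in the lists below stand out less. Among 19 genes of the gamma-tubulin ring and augmin complexes, which start new microtubules, 4 fell and 0 rose with EnnA by the authors' Cuffdiff q. The share lower, 21.1%, was near the 24.9% of all listed genes. At an unadjusted p under 0.05 the counts were 5 and 0, and the median log2 change of the list was -0.25. Tubgcp5 and Tubgcp3, subunits of the ring, fell with EnnA (log2 changes -0.71 and -0.40), as did the augmin gene Haus4 (-0.60). With 17-AAG 5 fell and 2 rose (26.3% and 10.5%, against 16.1% and 15.6% of all), with a median of -0.24. Those that fell included the augmin gene Haus7 (-0.48), the ring subunit gene Mzt2 (-0.42) and the ring targeting factor gene Nedd1 (-0.40).

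New tubulin chains are passed by prefoldin to the CCT chaperonin and then joined into dimers by cofactors TBCA to TBCE. Of 14 listed prefoldin and cofactor genes, 4 fell and 2 rose with EnnA, with a median log2 change of -0.04. These were 28.6% and 14.3% of the list, against 24.9% and 24.3% of all listed genes. Tbcc, whose product completes the dimer, went from 8.56 to 2.48 FPKM (log2 change -1.46), and the prefoldin gene Pfdn5 from 307 to 190.3 FPKM (log2 change -0.69). Pfdn4 fell (-0.45) and Pfdn1 rose (0.46). With 17-AAG 6 of the 14 fell and 0 rose by the authors' Cuffdiff q, with 7 and 1 at an unadjusted p under 0.05 and a median of -0.30. The share lower was 42.9%, against 16.1% of all listed genes. Pfdn4 went from 332 to 159.9 FPKM (log2 change -1.05), and Tbca, Tbcb and the prefoldin gene Vbp1 fell with log2 changes of -0.71, -0.66 and -0.63. Tbca, Tbcb and Vbp1 were not called with EnnA, where their log2 changes were -0.07, -0.01 and -0.22.

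The 8 CCT subunit genes were abundant, from 320.2 to 891 FPKM with DMSO in the EnnA table, and stayed near their DMSO level. With EnnA 1 rose, Cct6a (log2 change 0.37, uncertain for an overlap with Snora15), and 0 fell by the authors' Cuffdiff q, with the same counts at an unadjusted p under 0.05. That is 12.5% higher, against 24.3% of all listed genes, and none lower, against 24.9%. Their median log2 change was 0.20. With 17-AAG 0 rose and 0 fell by the authors' Cuffdiff q or at an unadjusted p under 0.05, against 15.6% and 16.1% of all listed genes by q, and the median was 0.00.

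Of 13 listed genes of tubulin autoregulation and the CCR4-NOT complex, 3 rose and 3 fell with EnnA, with a median log2 change of -0.13. At 23.1% each way these shares were close to those of all listed genes, 24.3% and 24.9%, so the counts are no result about the list. Scaper rose from 8.55 to 14.7 FPKM (log2 change 0.72), and the CCR4-NOT genes Cnot4 and Cnot10 rose (0.69 and 0.58) while Cnot11 fell (-0.60). Ttc5, named after its value was seen, went from 11.2 to 7.26 FPKM (log2 change -0.56, q = 0.00136 in the authors' deposited table). With 17-AAG 0 rose and 0 fell in this list by the authors' Cuffdiff q or at an unadjusted p under 0.05, against 15.6% and 16.1% of all listed genes by q. Ttc5 was at 12.3 FPKM with DMSO and 12.2 FPKM with 17-AAG. Free tubulin and RNA decay were not analysed here.

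Of 16 listed enzymes that modify tubulin, 3 fell and 1 rose with EnnA (18.8% and 6.25%, against 24.9% and 24.3% of all listed genes). With 17-AAG 2 fell and 2 rose, 12.5% each way against 16.1% and 15.6%. The polyglutamylase gene Ttll1 fell with both (log2 changes -0.62 and -0.40). The glutamylase subunit gene Tpgs1 (0.50) and the deacetylase gene Hdac6 (0.34) rose with 17-AAG, and Ccdc23 fell (-0.41). Of 30 listed microtubule-associated and dynamics genes, 10 fell and 5 rose with EnnA, with a median of -0.22. These were 33.3% and 16.7% of the list, against 24.9% and 24.3% of all listed genes. The spindle protein gene Ckap2 went from 71.2 to 23.4 FPKM (log2 change -1.56), and Fignl1, Kif2c, a microtubule-depolymerising kinesin, and Stmn1, which binds free tubulin, fell (-1.37, -1.09 and -0.87). With 17-AAG 5 fell and 3 rose (16.7% and 10%, against 16.1% and 15.6% of all), with a median of 0.04. Stmn1 (-0.56), the spindle assembly factor gene Tpx2 (-0.46) and Kif2c (-0.44) fell, and the plus-end binding gene Mapre3 rose (0.59).

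The other filament systems were described in the same way. Of 11 listed actin, intermediate filament and lamin genes, 9 fell and 0 rose by the authors' Cuffdiff q, with the same counts at an unadjusted p under 0.05 and a median log2 change of -0.93. The share lower was 81.8%, against 24.9% of all listed genes, and the actin-crosslinking genes Actn1 (log2 change -0.12) and Actn4 (0.03) were not called. Acta2, smooth muscle actin, went from 133 to 34.5 FPKM (log2 change -1.92), Actg1 from 142 to 47.8 FPKM (-1.56), Actb from 1007 to 418 FPKM (-1.27) and Vim, vimentin, from 2746 to 1209 FPKM (-1.18). With 17-AAG 2 of the 11 fell (18.2%, against 16.1% of all listed genes), Lmna (-0.51) and Vim (-0.48), and Krt8 rose (0.57), with a median of -0.12. Actg1 and Actb were not called there (0.04 and -0.18). The difference between the tubulin and the actin genes was not tested.

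**Figure D4:**
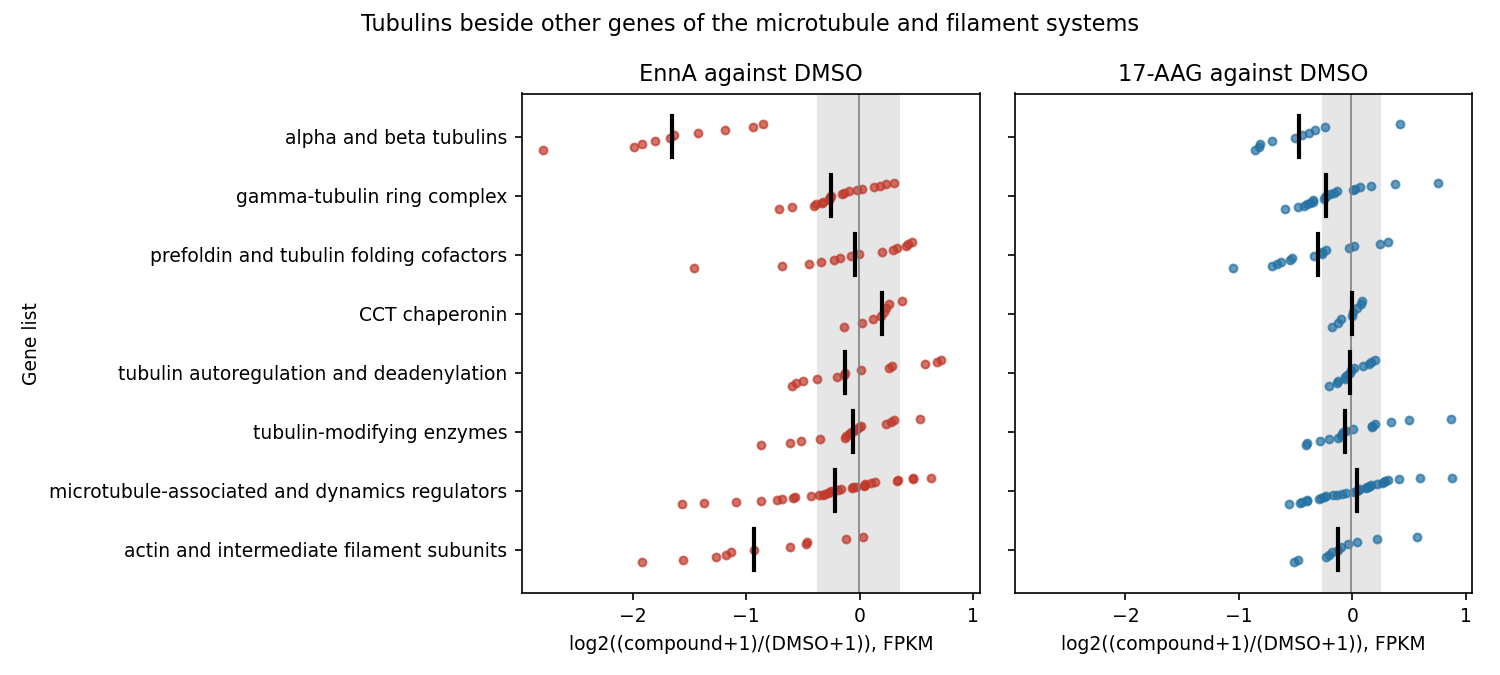
Log2 change in FPKM (compound + 1 over DMSO + 1) of each listed gene, by gene list, with EnnA (left, red) and 17-AAG (right, blue); black bars are list medians, the grey band holds the middle 50% of all listed genes and the grey line their median. With EnnA the tubulin median is -1.66 and that of the actin and intermediate filament list -0.93, while the CCT genes centre on 0.20; with 17-AAG the tubulin median is -0.47.

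Likeness to the members was measured as the distance between genes in the plane of both log2 changes, over 8234 other genes with at least 5 FPKM with DMSO. With 2 comparisons that share their DMSO libraries, this ranks genes only by a pair of values. The genes nearest to the member median (-1.66 with EnnA, -0.47 with 17-AAG) were Ska2 (-1.66 and -0.47), Gm9833 (-1.64 and -0.52), Ccnf (-1.72 and -0.40), Cdkn3 (-1.58 and -0.35) and Rhebl1 (-1.56 and -0.59). Their distances ran from 0.0092 to 0.15. Tubb4b had no gene that near. Mgst3 (-2.98 and -0.69) lay at a distance of 0.19, and Ly6c1 (-3.21 and -0.65), S100a6 (-2.37 and -0.65), S100a11 (-2.79 and -0.19) and Ly6a (-2.25 and -0.80) at 0.42 to 0.55.

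Promoter windows, 250 bases before to 50 after the annotated start, were in the RefSeq table (GRCm38.p6) for 8 members, while Tubb2b, Tubb6 and Tubg1 had no entry. The motif CCAAT, the core of the NF-Y binding site, was found on either strand in 5 of the 8 windows, and in 37.9% of all 27025 promoter windows. GGGCGG, the GC box, was found in 7 of 8 and in 35.9% of all. The members' windows were 53.7% to 72.7% G and C, against a median of 52.7% over all windows. GAANNTTC, a minimal heat shock element, was found in 0 of 8 and in 7.95% of all. TTTGAA and TTTAAA were found in 1 of 8 each (18.1% and 13.2% of all), CACGTG in 1 of 8 (7.24%) and TATAAA in 2 of 8 (14.2%). No motif in this set contains another, and GAANNTTC can overlap TTTGAA. A match is a run of letters, not a shown site of binding.

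The windows of the member with the largest change with EnnA (Tubb4b, chr2:25224653-25224952, minus strand) and with the smallest (Tuba4a, chr1:75219245-75219544, minus strand) are shown 5′ to 3′ on the strand of the gene, with CCAAT in capitals.
Tubb4b: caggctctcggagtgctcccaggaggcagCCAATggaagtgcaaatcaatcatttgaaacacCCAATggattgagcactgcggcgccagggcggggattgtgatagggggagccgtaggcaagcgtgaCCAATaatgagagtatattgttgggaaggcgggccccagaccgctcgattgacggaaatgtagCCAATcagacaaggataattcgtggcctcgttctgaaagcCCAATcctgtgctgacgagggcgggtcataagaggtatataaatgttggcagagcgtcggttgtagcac
Tuba4a: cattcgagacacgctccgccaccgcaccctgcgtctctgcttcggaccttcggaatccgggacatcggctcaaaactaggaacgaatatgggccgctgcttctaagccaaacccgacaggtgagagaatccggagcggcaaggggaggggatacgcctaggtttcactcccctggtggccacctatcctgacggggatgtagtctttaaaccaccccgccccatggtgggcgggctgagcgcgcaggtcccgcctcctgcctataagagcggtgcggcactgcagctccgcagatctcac
The Tubb4b window held 5 CCAAT motifs, which begin 221, 188, 122, 59 and 19 bases before the annotated start. As many were found in 77 of the 27025 windows (0.285%). The Tuba4a window held none, as did those of Tuba1b and Tubb2a, which were 3.15-fold and 3.76-fold lower with EnnA. Tubb5 held 2 and Tubb3, Tuba1a and Tuba1c 1 each. Whether the number of motifs goes with the size of the change was not tested.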

How the data were processed

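Messenger RNA of E0771 cells was sequenced in 6 libraries, 2 per group. Per the submitters' processing notes, STAR, the mouse build mm9, Cufflinks and Cuffdiff were used, with versions and roles not given in the sources used here. Deposited values, per the file headers, are an FPKM per gene and group pooled over 2 libraries. FPKM is scaled by length and depth, and its low values are the least precise. The log2 fold change in the deposited tables is DMSO over compound, and its sign was turned here. The p-value and q-value in the deposited tables are the authors' own, and the q-value equals the Benjamini-Hochberg adjustment of p over all genes listed (11024 and 11305). Depth per library is unknown, so precision is given only by the implied SE.

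Changes were computed as log2 with a pseudocount of 1 FPKM (Python 3.11.15, pandas 2.3.3). The computation of the implied SE and of the adjustment was checked on simulated data. These were drawn under the same normal distribution, so whether it holds for the authors' p-values was not tested. No model was fitted to the members, since members and lists were chosen with earlier results of these data known. Named genes were the members, the other tubulin genes, up to 4 called members per list and table with the largest change and at least 5 FPKM in a group, and the 5 genes nearest to the member median and to Tubb4b. Of 12 lists, 4 held cell type markers.

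Coding sequences were taken from GENCODE M21 transcripts and aligned globally in Biopython 1.88, in place of the protein comparison first planned. Windows of 50 bases were matched on the sense strand. Promoters are those of RefSeq, 1 window per gene. Alternatives were other pseudocounts, median centring, a stricter q, a minimum change and a minimum FPKM. Both libraries of a group were pooled by the authors, so leaving out a library was not possible.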

Additional observations from a re-analysis of the deposited data

How the results depend on the processing

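The direction of each member's change was kept under no pseudocount, a pseudocount of 0.1 FPKM and median centring, which could not be otherwise. A pseudocount cannot turn a direction, and the medians taken off in centring were small (-0.000519 with EnnA and -0.0193 with 17-AAG). Only the size of a change could shift. Tubb3 with EnnA moved most, from -1.92 to -2.49 with 0.1 FPKM and -2.57 with none. Among the other 60 such values, Tubg1 included, the largest shift was 0.12, for Tubb2b with EnnA. The pooled beta change without Tubb5 was -2.03 with EnnA and -0.69 with 17-AAG on the log2 scale, against -1.48 and -0.41 with it. With EnnA 10 members were called lower at q under 0.01 and among genes of at least 1 FPKM in both groups, and 9 with a minimum change of 2-fold. Over all listed genes the 1 FPKM minimum gave 2323 lower and 2531 higher, against 2747 and 2675 without it.

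With 17-AAG 4 members were called lower and 0 higher at q under 0.01, and 0 and 0 with a minimum change of 2-fold. Over all listed genes that minimum left 605 of 2675 higher and 956 of 2747 lower with EnnA. With 17-AAG it left 468 of 1760 higher and 181 of 1815 lower, and q under 0.01 left 1105 and 1174. Over the genes of all lists, the minimum left 5 of 17 higher and 12 of 37 lower with EnnA, and 3 of 12 and 2 of 24 with 17-AAG. At q under 0.01 the lists kept 7 of 12 higher and 15 of 24 lower with 17-AAG. No paired analysis was possible because the deposited columns are pooled over the replicates, and leaving out each replicate was not run for the same reason. Unknown depth limits what can be said of Tubb3, Tubb2b and the other genes under about 10 FPKM.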
